A study of Mus musculus with 16 samples.

Results

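The proteasome is the large protease that degrades ubiquitin-tagged proteins in the cytosol and nucleus. Its 20S core is a barrel of alpha rings, which gate the entrance, and beta rings, which hold the proteolytic sites. The 19S cap recognises ubiquitin, unfolds the substrate with a ring of ATPases and feeds it into the barrel. The genes described here are the gene rows whose names begin with Psma, Psmb, Psmc, Psmd, Psme, Psmf or Psmg and a digit, without Psmb8, Psmb9 and pseudogenes. That rule gave 48 of the 20730 genes in the files. They comprise 7 alpha subunits, 7 beta subunits, 6 ATPases and 11 non-ATPase subunits of the cap, which together are called the 31 core subunits below. The others are 5 activators, 1 inhibitor, 3 chaperones of cap assembly, 4 chaperones of 20S assembly, the inducible Psmb10, the thymic Psmb11, the testis alpha subunit Psma8, and Psmc3ip. The last matches by name but is a meiotic recombination factor and no proteasome subunit. All genes named by the rule had an entry in the RefSeq annotation of GRCm38.p6, whose coordinates are those of mm10.

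RNA came from the whole striatum of 8 adult C57BL/6N mice. All 8 had received an adeno-associated virus (AAV) with the RiboTag, a hemagglutinin-tagged Rpl22 expressed in astrocytes, so both treatments included the tag virus. The level of Rpl22 RNA was lower in PMCA than in control mice, with values given below. A second AAV carried hPMCA2w/b, a plasma membrane calcium pump that suppresses calcium signals, in 4 mice (PMCA mice) and a control protein in the other 4 (control mice). From each mouse the RNA precipitated with the tagged astrocyte ribosomes (IP) and the RNA of the cleared lysate (input) were sequenced. The sources used here give neither the viral promoters nor an exact age. The comparisons ask what the pump changed in each fraction, what the IP held more or less of than the input, and whether the effect of the pump differed between fractions.

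Library totals were 46829673 to 58482482 reads in the 8 IP libraries and 32334042 to 40851354 reads in the 8 inputs. Each core subunit had between 1186 and 16791 reads in every library. The 12 astrocyte markers summed in IP to 1319% of their input level (CPM, the reads scaled to the effective library size) in PMCA mice and to 1224% in control mice, and the 12 microglial markers to 5.32% and 4.89%. The 6 endothelial markers summed to 9.24% and 6.17%, and the 12 neuronal markers to 48.2% and 61.2%. The 7 oligodendrocyte markers were not depleted as group means, at 124% and 117%, so the IP was not free of RNA from other cells. The control value leaned on control 4, with 10718 CPM in IP and 6364 CPM in input. Controls 1 to 3 had 4878, 5438 and 6740 CPM in IP and 5742, 5449 and 6200 CPM in input. Among the mice, PMCA 3 and control 4 stood apart: Xist was at 4.98 to 9.11 log2 CPM in their libraries and at most -0.09 in those of the other 6 mice, and the Y-linked Ddx3y at most -1.64 against at least 6.35. The numbers in the animals' titles fall into a higher set (PMCA 3, PMCA 4 and control 4) and a lower set (the other 5 mice), and the title and the source name of control 4 carry different numbers. Counts that rest on these mice are given with and without them.

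Promoters were read for the 40 members with an entry in the RefSeq promoter table of GRCm38.p6, over the 250 bases before each start. The antioxidant response element core TGACNNNGC is the letters bound by the Nfe2l1 factor that drives proteasome genes when the protease is blocked. CCGGAAG is a site of ETS factors, common at housekeeping promoters. On either strand, CCGGAAG was in 13 of 40 members (32.5%), against 6.91% of all 32851 windows. The 40 members had 43 windows, and a member was counted if any of its windows matched, whereas the background counts single windows. Member promoters were also richer in CpG (median 15 per window against 6), and among windows with at least 10 CpG the shares were 40.6% of member windows and 14.4% of all such windows. TGACNNNGC was in 5 of 40 (12.5%: Psmb5, Psmb6, Psmc6, Psmd12 and Psmd9) against 10.2% of all windows. The CCAAT box (CCAAT) was in 35.0% of members against 33.8%, and the TATA box (TATAAA) in 7.5% against 12.4%. The letters of an interferon-stimulated response element (7.5% against 2.98%) and of a gamma-activated site, TTCNNNGAA (2.5% against 7.02%), were in neither Psmb10 nor Psme1. In 0 of the 43 member windows did different motifs share a position. These matches describe letters only. Shown are the 150 bases before the start, 5′ to 3′ on the strand of the gene, with the match in capitals, for genes the results below turn on. Psmb5 (catalytic) holds TGACNNNGC; Psmc1 and Psmd6, which were lower in PMCA IP, and Psmd11, the core subunit with a positive fold change there, hold CCGGAAG or its reverse complement; the inducible Psmb10 and Psme1 hold no match and are printed without capitals. They lie at chr14:54617996-54618145 (minus strand), chr12:100110052-100110201 (plus), chr14:14120946-14121095 (minus), chr11:80428465-80428614 (plus), chr8:105938393-105938542 (minus) and chr14:55578344-55578493 (plus). The match begins 47 bases before the start in Psmb5, 28 in Psmc1, 45 in Psmd6 and 11 in Psmd11.
Psmb5: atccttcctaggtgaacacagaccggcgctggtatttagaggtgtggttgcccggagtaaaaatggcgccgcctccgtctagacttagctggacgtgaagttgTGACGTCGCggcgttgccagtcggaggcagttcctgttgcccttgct
Psmc1: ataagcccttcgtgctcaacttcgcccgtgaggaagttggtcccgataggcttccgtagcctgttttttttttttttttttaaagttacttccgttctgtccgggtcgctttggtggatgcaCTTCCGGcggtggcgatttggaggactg
Psmd6: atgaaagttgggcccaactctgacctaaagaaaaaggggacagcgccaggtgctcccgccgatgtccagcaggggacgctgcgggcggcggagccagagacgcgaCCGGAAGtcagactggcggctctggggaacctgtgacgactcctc
Psmd11: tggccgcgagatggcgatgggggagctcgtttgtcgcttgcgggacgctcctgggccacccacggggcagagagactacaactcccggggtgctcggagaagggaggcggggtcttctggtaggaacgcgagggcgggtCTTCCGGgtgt
Psmb10: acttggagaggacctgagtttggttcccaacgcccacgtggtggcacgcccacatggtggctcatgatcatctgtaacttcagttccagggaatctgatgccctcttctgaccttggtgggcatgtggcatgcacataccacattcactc
Psme1: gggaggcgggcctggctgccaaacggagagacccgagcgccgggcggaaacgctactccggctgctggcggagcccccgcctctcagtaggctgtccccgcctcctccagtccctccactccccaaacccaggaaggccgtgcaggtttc

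In the IP, genes of both proteasome particles had lower levels in PMCA than in control mice. Of the 47 members tested, 23 fell and 0 rose by limma's moderated test at an adjusted p under 0.05, in a comparison in which 19.6% of all 15748 genes tested were called, 10.1% lower and 9.54% higher. The calls were 22 of the 31 core subunits and 1 of the other 16 members, the assembly chaperone Psmg2. The median log2 fold change was -0.20 over the members and -0.22 over the core subunits, against -0.01 over all genes tested. The core median corresponds to 85.6% of the control level, and the core subunits ran from 77.9% to 111% of it. For 30 members every PMCA IP library was below every control IP library (14.2% of all genes), and for 0 members it was above (11.3%). The values are shares of each library, and in bulk RNA fewer cells of a type and less RNA per cell cannot be told apart.

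The size of these counts changed with single mice. Leaving out one mouse at a time gave 10 to 23 members lower, with 10 without control 2, 11 without PMCA 2, 12 without control 3, 13 without PMCA 3, 14 without control 4 and 15 without PMCA 1. Without PMCA 3 and control 4 together, 5 members passed. Of all 15748 genes tested, 1585 were lower with all mice, 807 to 1818 with single mice left out, and 551 without both mice. The median log2 fold change over the members stayed between -0.21 and -0.19 in these fits. Within the lower animal numbers (2 PMCA against 3 control mice) the core median was -0.21 with 30 of 31 subunits negative, and within the higher numbers (2 against 1) it was -0.26 with 29 of 31 negative. The single control of the higher set is control 4. Placed by its source name it joins the lower set, and the higher numbers then hold no control to compare with. Psmb1, Psmb6, Psmb7 and Psmd6 were called lower under all 18 alternatives.

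Summed over the 31 core subunits, the IP held 2697, 2634, 2713 and 2554 CPM in PMCA mice, against 2961, 3084, 3119 and 3149 CPM in control mice. The highest PMCA library was below the lowest control library. The means were 2650 ± 72.2 CPM in PMCA mice and 3078 ± 82.6 CPM in control mice (SD, n = 4 each), which is 86.1% of the control level. By subcomplex, the PMCA share of the control level was 80.8% for the beta ring, 86.5% for the ATPases, 87.3% for the alpha ring and 88.2% for the non-ATPase subunits. In all 4 subcomplexes the PMCA and control IP libraries did not overlap.

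**Figure D1:**
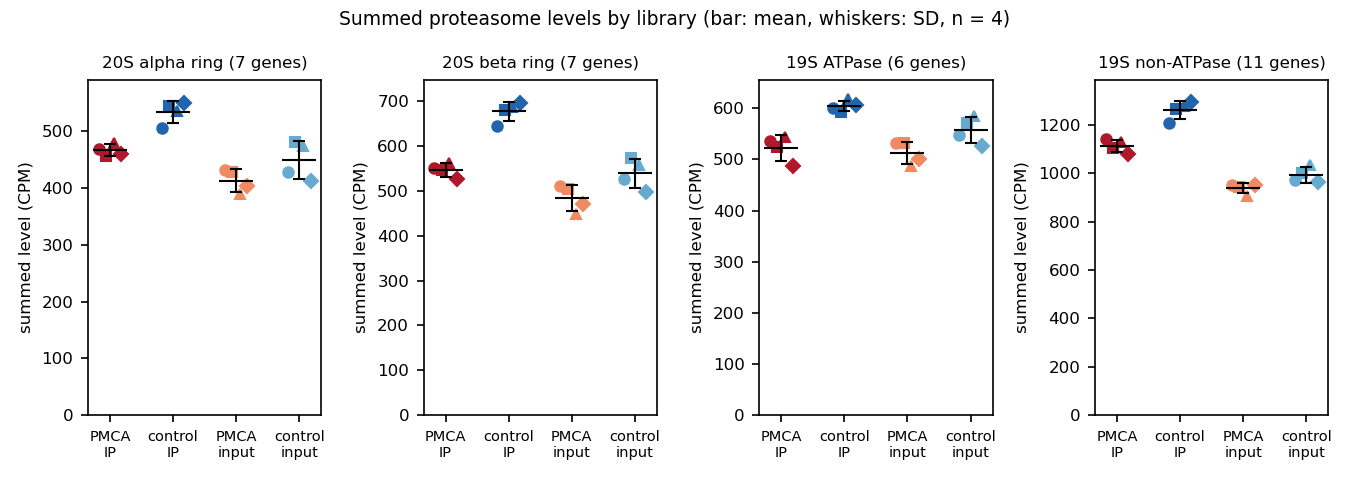
Summed level (CPM, vertical axis from 0) of the subunits of each subcomplex in the 16 libraries, with PMCA IP, control IP, PMCA input and control input from left to right. Points are libraries, with one symbol per replicate number, and black bars give the mean and SD (n = 4). The PMCA IP points lie below the control IP points in each panel, whereas the input groups overlap except for the non-ATPase subunits.

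Within the beta ring, which carries the proteolytic sites, 6 of 7 genes fell, and Psmb2 did not pass (log2 fold change -0.20, adjusted p = 0.0742). Psmb7, the trypsin-like subunit, stood at 6.66, 6.58, 6.63 and 6.57 log2 CPM in PMCA IP, against 6.91, 6.96, 6.94 and 6.95 log2 CPM in control IP. The groups did not overlap, and the fold change was -0.33 ± 0.05 (SE; limma adjusted p = 0.00395). Psmb6, the caspase-like subunit, was at 6.46, 6.57, 6.61 and 6.40 log2 CPM in PMCA IP and at 6.73, 6.84, 6.86 and 6.86 in control IP, a fold change of -0.31 ± 0.07 (adjusted p = 0.0106). Its groups did not overlap either, although control 1 was lower than the other controls. Psmb5, the chymotrypsin-like subunit that proteasome inhibitors bind best, was at 5.72, 5.62, 5.66 and 5.42 log2 CPM in PMCA IP and at 5.81, 5.87, 5.96 and 5.97 in control IP. Every PMCA value was below every control value, and the fold change was -0.30 ± 0.08 (adjusted p = 0.0237). The largest fold among all members belonged to Psmb1, a non-catalytic beta subunit, at 6.53, 6.54, 6.58 and 6.61 log2 CPM in PMCA IP and 6.91, 6.96, 6.91 and 6.93 in control IP. The spread within each group was far below the gap between them (-0.36 ± 0.05, adjusted p = 0.00307). Psmb3 and Psmb4, the remaining called beta genes, had fold changes of -0.31 and -0.30.

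In the alpha ring 4 of 7 genes fell, namely Psma1 (-0.30), Psma2, Psma4 and Psma6. Psma3, Psma5 and Psma7 had log2 fold changes of -0.11, -0.17 and -0.15 and did not pass. Psma3 shares a stretch of the genome with the noncoding 3110056K07Rik and Psma4 with AY074887. The sources used here do not say whether counting used the strand.

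Most genes of the cap fell as well. Among the ATPases 5 of 6 fell, between -0.24 and -0.19, and Psmc5 did not pass (-0.12, adjusted p = 0.235). Among the non-ATPase subunits 7 of 11 fell: Psmd1, the ubiquitin receptor Psmd4, Psmd6, Psmd8, Psmd12, Psmd13 and Psmd14, the deubiquitinase that removes the ubiquitin chain. Psmd1 overlaps Htr2b over 18686 bases in the annotation. Psmd8, a lid subunit, was at 6.20, 6.32, 6.41 and 6.49 log2 CPM in PMCA IP, against 6.58, 6.70, 6.76 and 6.77 log2 CPM in control IP. The groups did not overlap (-0.35 ± 0.08, adjusted p = 0.0129). Psmd6, another lid subunit, was at 5.95, 5.87, 5.93 and 5.80 log2 CPM in PMCA IP and at 6.17, 6.22, 6.26 and 6.13 in control IP, without overlap (-0.31 ± 0.06, adjusted p = 0.00823).

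Psmd11 was the only core subunit with a positive fold change. This lid subunit, which clamps the cap to the core, was at 6.18, 6.06, 6.15 and 5.99 log2 CPM in PMCA IP, against 5.85, 5.97, 5.94 and 6.03 log2 CPM in control IP. The groups overlapped, and the difference of 0.15 ± 0.07 did not pass (adjusted p = 0.148). Psmd7, also of the lid, had a fold change of -0.03 (adjusted p = 0.802).

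**Figure D2:**
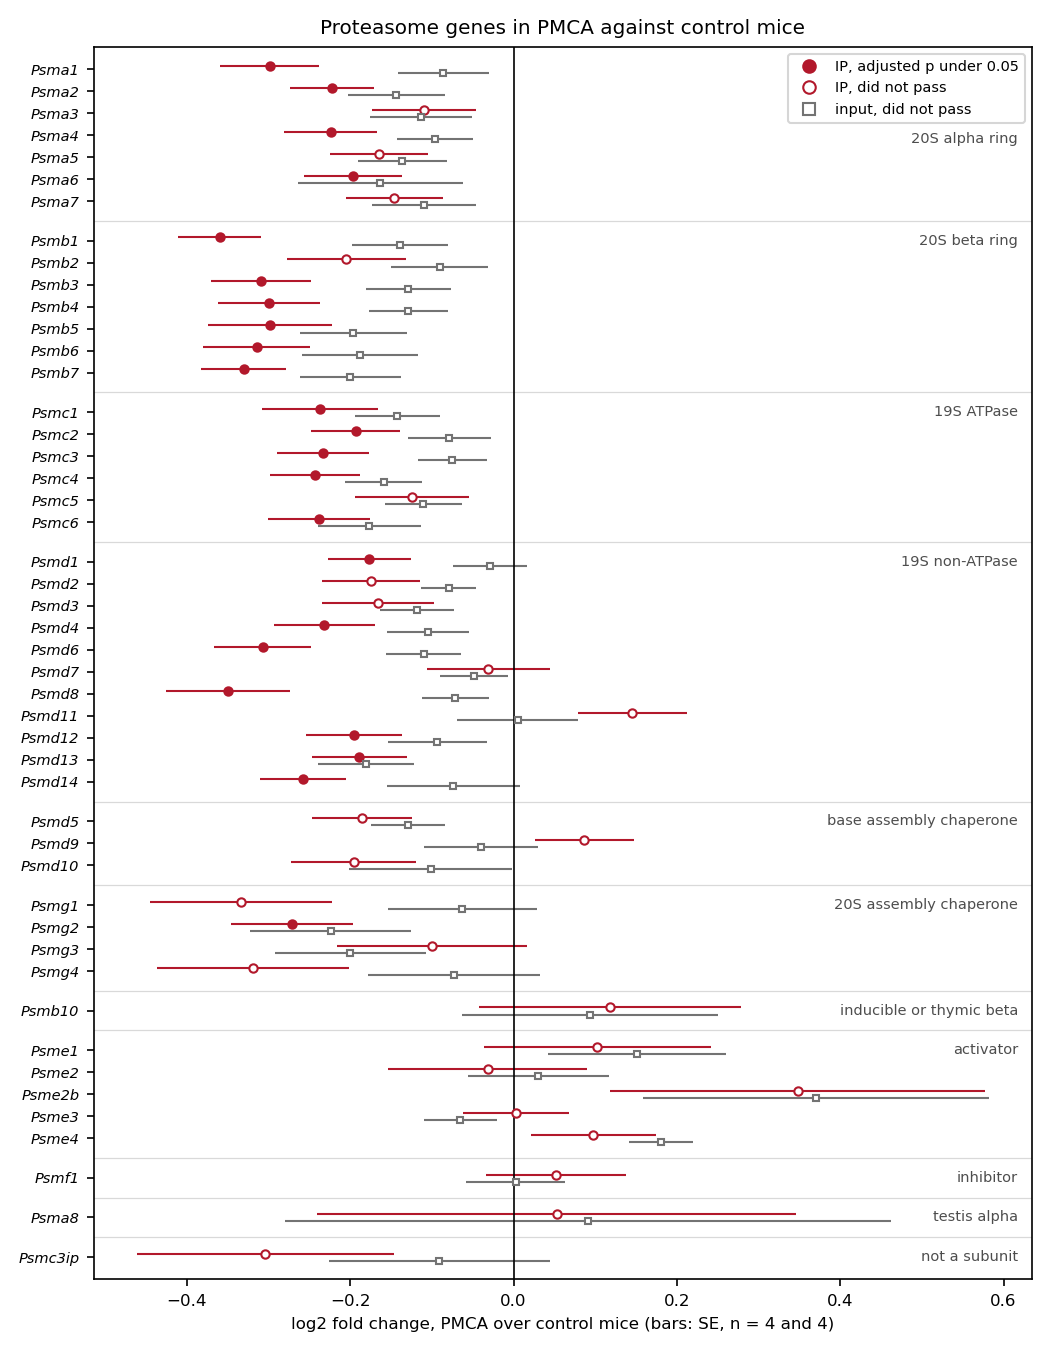
Log2 fold change (horizontal axis) of PMCA over control mice for the 47 tested genes, grouped by role from top to bottom, in IP (circles) and input (squares), with bars of 1 SE from 4 and 4 mice. Filled circles passed an adjusted p of 0.05 in IP; these are 23 genes, all left of 0, and no gene passed in the input.

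Members outside the core were mostly not called. None of the 5 activators, the inhibitor Psmf1 or the 3 chaperones of cap assembly passed. Psmb10, the inducible beta subunit that takes the place of Psmb7 in immunoproteasomes, was at 7.03, 6.93, 7.32 and 7.35 log2 CPM in PMCA IP, against 6.60, 7.04, 7.11 and 7.42 log2 CPM in control IP. The groups overlapped fully, and the fold change was 0.12 ± 0.16 (adjusted p = 0.642).

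Psme1 and Psme2 form the interferon-inducible activator ring that opens the 20S gate. Psme1 was at 6.52, 6.65, 6.83 and 7.07 log2 CPM in PMCA IP and at 6.34, 6.64, 6.77 and 6.91 in control IP. Psme2 was at 5.69, 5.67, 6.01 and 5.92 log2 CPM in PMCA IP and at 5.56, 5.83, 5.91 and 6.12 in control IP. Both overlapped between treatments, with fold changes of 0.10 ± 0.14 and -0.03 ± 0.12. Psme3, the nuclear activator, was at 5.89, 5.83, 5.76 and 5.78 log2 CPM in PMCA IP and at 5.68, 5.88, 5.82 and 5.87 in control IP. Psme4, an activator with a role in chromatin, was at 6.00, 6.10, 6.31 and 6.18 log2 CPM in PMCA IP and at 5.96, 6.03, 6.07 and 6.15 in control IP. Psmf1, named for inhibiting the 20S core in vitro, was at 5.36, 5.44, 5.41 and 5.75 log2 CPM in PMCA IP and at 5.40, 5.48, 5.45 and 5.42 in control IP. These groups overlapped too, and their adjusted p-values were 0.98 for Psme3, 0.397 for Psme4 and 0.707 for Psmf1. Psme2b is a close copy of Psme2, so its reads may be shared with it, and its fold change of 0.35 did not pass (adjusted p = 0.31).

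The 4 chaperones of 20S assembly had negative fold changes, of which that of Psmg2 passed (-0.27 ± 0.07, adjusted p = 0.0305). Psmg1, its partner in assembling the alpha ring, had a fold change of -0.33 with an SE of 0.11 and did not pass (adjusted p = 0.0608). Of the cap chaperones, Psmd5 and Psmd10 had fold changes of -0.19 and -0.20, and Psmd9 had 0.09. In the annotation Psmd10 overlaps Atg4a. The tissue-restricted members were near the detection limit in striatum: Psma8 had 20 to 28 reads per PMCA IP library and 18 to 39 per control IP library, and Psmb11 had 0 to 7 reads in any library and was not tested.

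Of the 30 other genes of the pathway that were tested, 8 fell in PMCA IP and 0 rose (median -0.17), among them the shuttle factors Rad23b (-0.35) and Ubqln1 (-0.25), the cap-bound Txnl1 (-0.34) and the deubiquitinase Usp14 (-0.26), the ubiquitin-activating Uba6 (-0.29), the nuclear import adaptor Akirin2 (-0.24) and the 20S maturation factor Pomp (-0.18). The transcription factors of proteasome genes, Nfe2l1 and Nfe2l2, had fold changes of 0.11 and -0.09 and did not pass. Complexes outside the pathway were lower as well. All 8 genes of the chaperonin CCT fell (median -0.38), 10 of 12 of the translation initiation factor eIF3 (-0.32), 66 of 81 ribosomal protein genes (-0.38), 56 of 82 respiratory chain genes (-0.32) and 5 of 9 of the COP9 signalosome (-0.22), a complex built on the plan of the proteasome lid. Differences between these lists and the proteasome were not tested.

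Several markers moved in the same libraries. Nuclear noncoding RNAs rose, 5 of 5, and summed to 3140 to 5587 CPM in PMCA IP against 1463 to 2197 CPM in control IP. Microglial markers rose in 5 of 12 and endothelial markers in 4 of 6, with sums of 86.0 to 139 and 9.54 to 14.3 CPM in PMCA IP against 67.3 to 86.7 and 6.03 to 6.95 CPM in control IP. Neuronal markers fell in 7 of 12 (2429 to 2797 against 2917 to 4124 CPM), astrocyte markers rose in 4 of 12 (43801 to 51352 against 31930 to 42019 CPM), and oligodendrocyte markers passed in 0 of 7. Rpl22, the gene of the tag, was -1.69 on the log2 scale in PMCA against control IP, and -0.88 in PMCA against control input. Of the 37 microglial, endothelial, neuronal and oligodendrocyte markers, 0 were without reads in any IP library. Their part in the proteasome result was not tested.

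In the input 0 of the 47 members passed, where limma called 0.442% of all 16306 genes tested (0.0797% lower and 0.362% higher), and voom weights gave 0 as well. At an unadjusted p under 0.05, 18 members were lower and 1 was higher, against 8.94% and 10.4% of all genes. The median over core subunits was -0.11, which is 92.6% of the control level, and 30 of 31 were negative. For 6 members every PMCA input was below every control input (4.77% of all genes). The summed level of the core subunits was 2427, 2408, 2233 and 2324 CPM in PMCA inputs, against 2474, 2630, 2650 and 2400 CPM in control inputs. Control 4 lay within the range of the PMCA mice, so the groups overlapped (2348 ± 88.7 and 2538 ± 121 CPM, SD, n = 4 each).

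Without control 4, the catalytic Psmb6 and Psmb7 and the ATPase Psmc6 passed as lower in the input (adjusted p = 0.0352, 0.0318 and 0.0349). Calls over all 16306 genes tested rose as well, from 13 lower and 59 higher with all 8 inputs to 416 lower and 936 higher. Psme4 was at 6.37, 6.32, 6.33 and 6.33 log2 CPM in PMCA inputs, against 6.13, 6.23, 6.13 and 6.14 log2 CPM in control inputs. The groups did not overlap, and Psme4 was the sole member for which every PMCA input exceeded every control input (4.99% of all genes tested). Its fold change of 0.18 ± 0.04 did not pass in the fit of all 8 inputs (adjusted p = 0.0755), and passed in 2 of 18 alternatives, without control 4 (0.0354) and with the set of animal numbers as a block (0.018). That block called 620 of all genes tested higher and 248 lower. With control 4 placed by its source name, the same block gave an adjusted p of 0.164. It overlaps Erlec1 in the annotation.

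Psmb7 was at 6.41, 6.41, 6.22 and 6.32 log2 CPM in PMCA inputs and at 6.49, 6.68, 6.56 and 6.42 in control inputs. Psmb6 was at 6.56, 6.50, 6.30 and 6.35 log2 CPM in PMCA inputs and at 6.61, 6.72, 6.69 and 6.45 in control inputs. Psmb5 was at 5.52, 5.42, 5.24 and 5.27 log2 CPM in PMCA inputs and at 5.55, 5.56, 5.64 and 5.48 in control inputs. The groups overlapped for Psmb5 and Psmb6 and just failed to overlap for Psmb7, and control 4 was the lowest control for all 3 catalytic genes.

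Whether the effect of the pump differed between fractions was tested as an interaction over all 16 libraries. 0 of the 47 members passed, where limma called 2.03% of all 16673 genes tested (1.06% lower and 0.972% higher), and voom weights gave 0 as well. This fit had no term for the mouse that links the IP and input libraries. With the mouse as a replicate block 0 members passed too, where 278 of all genes tested were called higher and 188 lower. At an unadjusted p under 0.05, 8 members had a more negative effect in IP and 0 a more positive one, against 8.39% and 7.87% of all genes. The median difference over the members was -0.08. Psmd8 had the largest difference, -0.28 ± 0.09 (adjusted p = 0.109). The larger effect in IP was therefore not shown to differ from that in the input.

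Comparing IP with input under the authors' scaling, more proteasome genes were higher than lower in IP in both treatments. In PMCA mice 25 of 47 members were higher in IP and 4 were lower (Psmc1, Psmc3ip, Psmd14 and Psme4), where 76.8% of all 16345 genes tested were called (37.4% higher and 39.3% lower). The median log2 fold change was 0.18 over the members and -0.04 over all genes. In control mice 34 of 47 members were higher and 1, Psmc3ip, was lower, where 77.5% of all 16072 genes tested were called (39.1% higher and 38.4% lower), with medians of 0.30 over the members and -0.0025 over all genes. The calls on the IP side were 5 of 7 beta subunits in PMCA mice and all 7 in control mice, 7 and 10 of 11 non-ATPase subunits, 4 and 5 of 7 alpha subunits, and 2 and 4 of 6 ATPases. Each comparison shares its IP libraries with the comparison of PMCA with control mice. The split depended on the scaling. With total reads in place of the authors' scaling factors, the median of all genes moved to -0.35 in PMCA mice and -0.28 in control mice. Under it, 24 of 37 positive member fold changes in PMCA mice and 16 of 41 in control mice were negative. The members then had 8 higher and 20 lower in PMCA mice and 13 higher and 9 lower in control mice, with medians of -0.13 and 0.03. Over all genes, total reads gave 4283 higher and 8908 lower of 16332 tested in PMCA mice. In control mice they gave 4486 higher and 8417 lower of 16082.

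Of the 5 activator genes, 3 were higher in IP than in input in both treatments (Psme1, Psme2 and Psme2b). Psme3 had fold changes of 0.11 in PMCA mice and 0.04 in control mice and did not pass, and Psme4 was at -0.19 (called lower) and -0.11 (not passed). Psmb10, Psme1, Psme2, Psme2b and the inhibitor Psmf1 kept their call under all 13 alternatives in both treatments. Psmb10 exceeded its input by 2.02, 2.03, 1.96 and 1.92 log2 units in PMCA mice 1 to 4, and by 1.66, 2.14, 2.19 and 1.86 in control mice 1 to 4. All 8 values were positive and the control mice were more spread, with means of 1.99 in PMCA mice and 1.96 in control mice (adjusted p = 2.71e-07 and 2.41e-06). Psme1 exceeded its input by 1.01, 1.14, 1.17 and 1.11 in PMCA mice and by 0.86, 1.10, 1.49 and 1.18 in control mice. Psme2 followed with 0.65, 0.53, 0.78 and 0.55 in PMCA mice and 0.51, 0.50, 0.88 and 0.86 in control mice. Psmf1 exceeded its input by 0.87, 1.03, 0.85 and 1.16 in PMCA mice and by 0.86, 1.02, 1.01 and 0.83 in control mice. In every mouse the difference was positive for these 4 genes. Psme2b had fold changes of 1.16 and 1.19 in PMCA and control mice, with the doubt about shared reads given above, and Psmf1 overlaps Tmem74b. Of the 12 interferon response genes, 10 were higher in IP in PMCA mice and 11 in control mice.

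Psmd11 had the highest IP over input of the core subunits. Its IP exceeded its input by 1.0, 0.97, 1.18 and 0.95 log2 units in PMCA mice and by 0.76, 0.95, 0.70 and 1.14 in control mice. The means were 1.03 and 0.89, whereas the core medians were 0.18 and 0.29. At the other end, Psmc1, an ATPase of the cap, differed by -0.16, -0.30, -0.04 and -0.34 in PMCA mice and by -0.03, -0.22, -0.14 and -0.05 in control mice. It was below 0 in all 8 mice and passed in PMCA mice (-0.21, adjusted p = 0.0201) but not in control mice (-0.11, adjusted p = 0.0703). Psmd14 differed by -0.27, -0.38, -0.11 and -0.20 in PMCA mice and by 0.11, -0.14, -0.26 and 0.07 in control mice, where the sign varied. Psme4 differed by -0.36, -0.23, -0.02 and -0.15 in PMCA mice and by -0.17, -0.21, -0.06 and 0.02 in control mice. The Psme4 values were below 0 in all mice but control 4. Ribosomal protein genes were lower in IP in 78 of 82 cases in PMCA mice and 76 of 82 in control mice (medians -1.35 and -1.09).

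**Figure D3:**
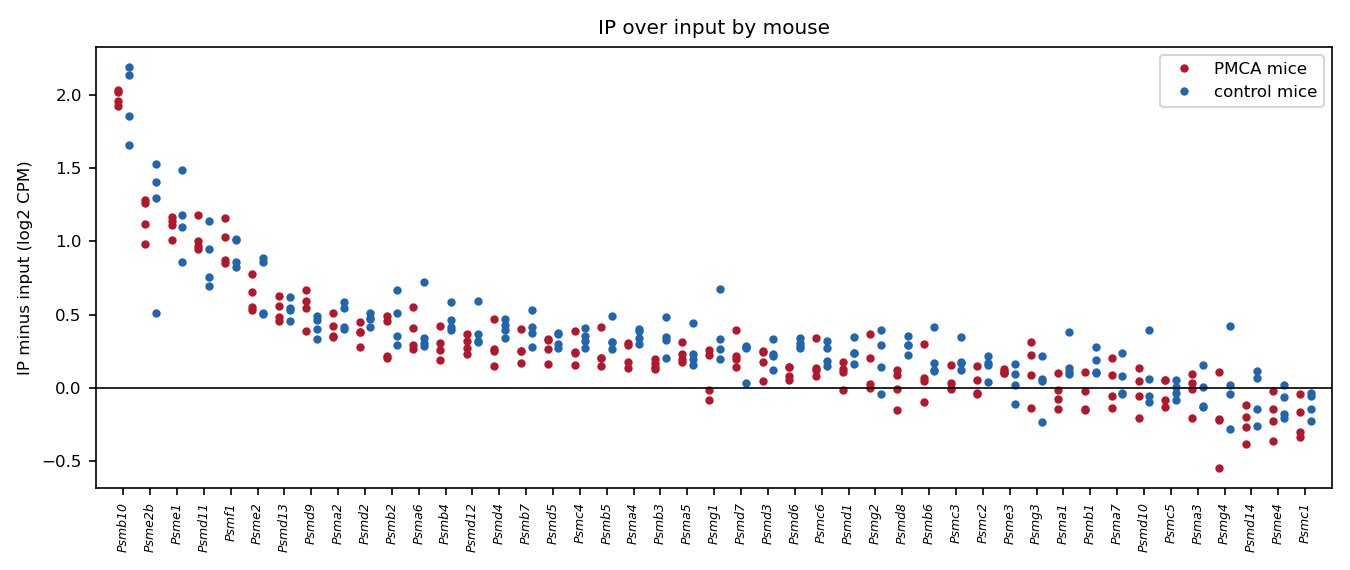
IP minus input (log2 CPM, vertical axis) of each mouse for 45 proteasome genes (Psma8, Psmb11 and Psmc3ip are not drawn), ordered by their mean, with PMCA mice (red, left) and control mice (blue, right) for each gene, under the authors' scaling. Psmb10 lies between 1.66 and 2.19 in all 8 mice, above the other genes drawn within each mouse, and most core subunits lie between 0 and 0.5. With total reads as the scaling, the median over the 47 members is -0.13 in PMCA mice and 0.03 in control mice.

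Across mice the core subunits varied little. Their median SD over the 4 mice of a group was 0.07 in PMCA IP, 0.06 in control IP, 0.07 in PMCA input and 0.08 in control input, against 0.15, 0.15, 0.10 and 0.12 over all genes on the log2 scale. The set of all genes includes genes with far fewer reads, whose SD also holds more counting noise, and genes of similar level were not compared. Psmb10 varied more, with SDs of 0.21, 0.34, 0.26 and 0.33 in the same groups. After the group means were removed, core subunits deviated together: the median pairwise correlation was 0.41 over the 8 IP libraries and 0.73 over the 8 inputs, as a description of genes that share libraries and scaling. The same correlation was not computed for other genes, so whether it is particular to the proteasome was not tested. In the inputs the mean core deviation was -0.08 in PMCA 3 and -0.09 in control 4, with 29 and 28 of the 31 subunits below their group mean.

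Levels of Psmb10 and Psme1 were set against the sets of animal numbers as a description, with no test. Psmb10 was at 5.36, 5.43 and 5.57 log2 CPM in the inputs of PMCA 3, PMCA 4 and control 4 and at 4.90 to 5.01 in the inputs of the other 5 mice. In the inputs, 4 of 47 members (Psmb10, Psme1, Psme2b and Psmf1) were above in all 3 mice of the higher set, where 9.46% of all genes were, and Psme2 was not among them. Another 13 members were below in all 3 mice (7.01% of all genes), among them the core subunits Psma1, Psma6, Psma7, Psmb1, Psmb2, Psmb3, Psmb6, Psmc2, Psmc3, Psmc5 and Psmd7. In IP, 5 of 47 were above (Psmb10, Psme1, Psme2, Psme2b and Psme4; 3.54% of all genes) and 0 were below (2.23%). If control 4 is placed by its source name instead, it joins the lower set, and for Psmb10 the sets then overlap in both fractions.

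**Figure D4:**
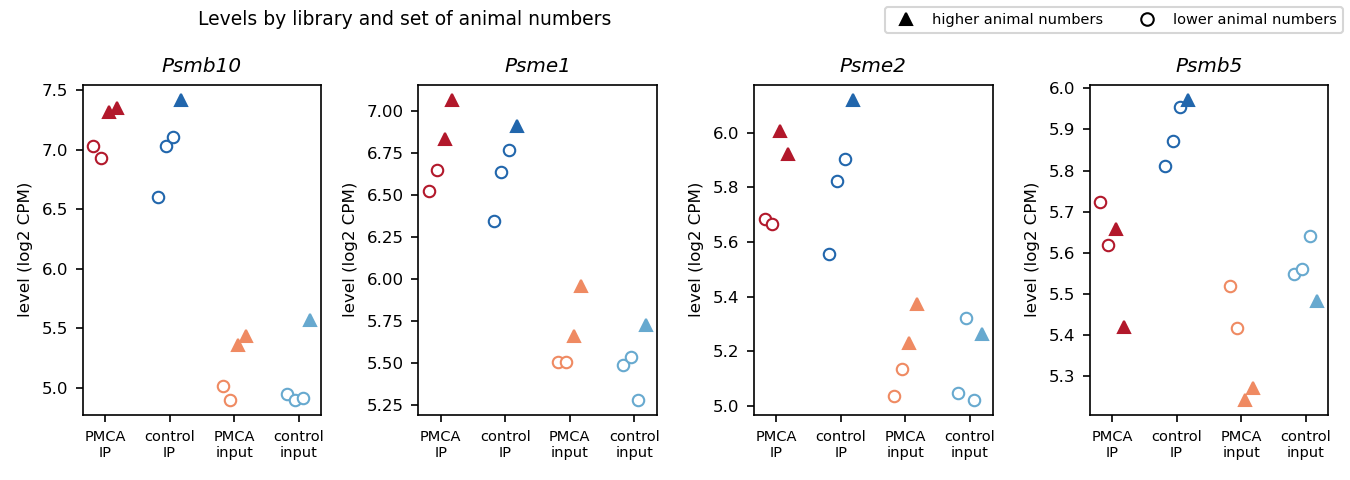
Level (log2 CPM, vertical axes that do not start at 0) of Psmb10, Psme1, Psme2 and Psmb5 in each library, with PMCA IP, control IP, PMCA input and control input from left to right. Filled triangles are the 3 mice with higher animal numbers and open circles the other 5. Triangles lie above circles for Psmb10 and Psme1 in both fractions.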

How the data were processed

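STAR, HTSeq, edgeR, limma and the build mm10 are named in the submitters' processing notes, without versions or roles. The authors deposited log2 CPM of 20730 genes per library, with an average prior of 0.25 reads. Undoing both gave whole reads for all genes (tolerance 0.001), hence totals and scaling factors (0.891 to 0.918 in IP, 1.10 to 1.12 in inputs). Each comparison used limma 3.58.1 in R 4.3.3 on the deposited log2 CPM, with a mean-variance trend and Benjamini-Hochberg adjustment over all genes tested (at least 10 reads at the median effective library size in 4 libraries and 15 in all), at a threshold of 0.05, two-sided. The code was tested on simulated data. Input and IP share a mouse by the labels: residuals of the same mouse correlated at 0.11 to 0.33 in 8 pairs, against -0.20 to 0.08 in 24 pairs of different mice. The members, gene lists, named genes (catalytic, inducible and activator genes, and the 4 largest called folds each way) and alternatives were chosen with earlier results of these data known. Transcript lengths were not used here, so levels are not compared between genes. Some single-gene values are not reported here.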

Additional observations from a re-analysis of the deposited data

Results flagged for a closer look

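Values of the 17 named genes with Dixon's test for a sample far from the other 3 of its group gave 4 cases in 68 groups, and chance gives about 1 in 20. Psmb10 was highest in the input of control 4, at 5.57 log2 CPM, where the next control input was at 4.94. Psmb6 was lowest in the IP of control 1, at 6.73 log2 CPM with the next at 6.84. Psme4 was highest in the input of PMCA 1 (6.37, next 6.33) and in the input of control 2 (6.23, next 6.14). Control 4 is also 1 of the 2 mice with high Xist.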

How the results depend on the processing

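Psmb1, Psmb6, Psmb7 and Psmd6 kept their IP call under all 18 alternatives, and 10 members in PMCA mice and 13 in control mice kept their IP over input call under all 13. The count of 23 members lower in PMCA IP became 5 without control 4 and PMCA 3, 10 with the animal-number set as a block and control 4 placed by its source name (an alternative chosen after seeing the data), and 10 to 23 with single mice left out. Over all genes tested, 1585 lower calls became 551, 756 and 807 to 1818 in the same settings. In the input, leaving out single mice gave 0 to 3 lower and 0 to 1 higher, and the animal-number block gave 1 higher. Over all genes in the input, leaving out control 4 gave 416 lower and 936 higher, and the animal-number block gave 248 and 620. For IP over input with total reads, 8 members were higher and 20 lower in PMCA mice, and 13 and 9 in control mice. All genes tested gave 4283 higher and 8908 lower in PMCA mice, and 4486 and 8417 in control mice. The shift of the all-gene median by that scaling gives the direction of these changes. It turned 24 of 37 positive member fold changes negative in PMCA mice and 16 of 41 in control mice; the named genes among them were Psmb5 (-0.062), Psmb6 (-0.23), Psmb7 (-0.035) and Psme3 (-0.19) in PMCA mice and Psmb6 (-0.070) and Psme3 (-0.23) in control mice. The 1 lower member in control mice became 0 with voom weights and 2 without control 4 and PMCA 3, and 0 to 2 with single mice left out. The 4 lower in PMCA mice became 2 to 5. With the mouse as a replicate block, IP over input gave 25 higher and 4 lower in PMCA mice and 34 and 1 in control mice, as without it, and changed no other call. The causes of the changes with single mice were not tested. Core subunits had at least 1186 reads, whereas Psma8 had 9 to 39 and Psmb11 at most 7.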

Other observations

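Interferon response genes were set against the animal numbers as well, with no test. Of the 12 listed, 8 lay above in all 3 mice of the higher set in each fraction, among them Irf1, B2m, Tap1 and Nlrc5, and 4 did not. Of all genes, 9.46% lay above in the inputs and 3.54% in IP. The summed level of the 12 genes in the inputs was 2149, 2242 and 2261 CPM in PMCA 3, PMCA 4 and control 4, and 1324 to 1485 CPM in the other 5 mice. Microglial markers summed to 2181, 2018 and 2075 CPM in the same 3 inputs, and to 1363 to 1777 CPM in the others. In IP, where microglial markers were at 67.3 to 139 CPM, the interferon response genes summed to 6248, 7449 and 7191 CPM in the 3 mice and to 4073 to 5726 CPM in the other 5. With control 4 placed by its source name the sets overlap for the interferon response sums in both fractions.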
